A study of Homo sapiens with 6 samples.

Results

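LYZ, RNASE2, RNASE3, CHI3L1 and RNASET2 encode lysozyme, 3 ribonucleases and a chitinase-like protein, which myeloid cells store in granules or lysosomes or secrete. The 5 genes were taken by name from an expression table of 15059 genes in NOMO-1 cells, a line grown from a patient's acute myeloid leukaemia, and all 5 had a row. They were picked as secreted antimicrobial and matrix proteins of maturing myeloid cells, with the difference between METTL16-knockout and control cells already known, so that difference is described below without a test. The 6 libraries fell into 3 groups of 2. Rescue cells (sgMETTL16+OE-METTL16) had been made to overexpress METTL16 and then received a guide RNA against METTL16. Knockout cells (sgMETTL16+EV) carried an empty vector and a guide against METTL16, and control cells (sgNS+EV) the empty vector and a non-targeting guide. All cells had been infected with lentivirus and grown in puromycin at 2 µg/ml for 1 to 2 weeks. Whether the guide cells were a clone or a mixed population is not given in the sources used here.

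Lysozyme cuts the peptidoglycan of bacterial cell walls and is made in large amounts by monocytes, macrophages and neutrophil precursors. RNASE2 (eosinophil-derived neurotoxin) and RNASE3 (eosinophil cationic protein) are secreted members of the RNase A superfamily that are best known from eosinophil granules and are also made by other myeloid cells. CHI3L1 belongs to the chitinase fold but has lost the enzyme activity, binds chitin and other glycans, and is secreted by macrophages and neutrophils. RNASET2 is unrelated to RNase A in sequence and degrades RNA in the acid lumen of lysosomes in most cell types. METTL16, the gene targeted in the study, is an RNA adenosine methyltransferase.

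Values are RSEM abundances per gene, called the signal here, which are scaled for transcript length. No source used here says whether they are TPM or FPKM. The summed signal ran from 597160 to 681928 per library, and the 2 libraries of a group correlated across genes, which are not independent replicates, with Pearson's r of 0.996 to 0.997 on the log2 scale. METTL16 had a signal of 12.3 and 12.1 in rescue, 6.05 and 5.83 in knockout and 9.89 and 9.63 in control libraries. It was lower in knockout than in control (limma, log2 change -0.63, adjusted p = 4.76e-05). Its rise in rescue against control did not pass (limma, log2 change 0.30, adjusted p = 0.175). Nothing in the labels says that replicates were separate cultures. The p-values therefore cover the spread among these libraries alone, which may be technical. NOMO-1 was described as a myeloid line, and the myeloid markers CD68 (29.7 to 63.4 over the 6 libraries) and FCN1 (14.1 to 26.9) had clear signal. T and B lymphoid and erythroid markers stayed low, with summed signals of at most 7.37 over 4 rows and 0.841 over 2 rows. Of the 3 lymphoid genes tested, CD2, a T cell surface protein that passed the filter only through the knockout libraries, rose in knockout against control (log2 change 1.22, adjusted p = 2.14e-06).

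The lysozyme gene LYZ (ENSG00000090382) lies on chromosome 12 at 69348341 to 69354234 on the plus strand of GRCh38, with 4 exons in its main transcript. Its signal was 81.9 and 87.2 in the knockout libraries, against 30.9 and 31.1 in the control libraries. Both knockout libraries lay far above both controls, 2.73 times the control mean. The log2 difference, fitted by limma on log2(signal + 1), was 1.42 (SE 0.060). In the rescue libraries LYZ stood at 55.0 and 57.8, apart from both other groups and nearly midway between them. An antisense gene overlaps LYZ in the annotation, and whether counting used the strand is not stated.

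RNASE2 and RNASE3 are neighbouring copies on chromosome 14 and were both higher in knockout. RNASE2 (ENSG00000169385, 20955452 to 20956436, plus strand, 2 exons) had a signal of 208 and 221 in knockout libraries, against 84.2 and 78.9 in control libraries. RNASE3 (ENSG00000169397, 20891399 to 20892348, plus strand, 2 exons) had 111 and 103 in knockout libraries, against 36.3 and 34.2 in control libraries. For each gene the knockout libraries lay above both controls with no overlap. The knockout mean was 2.63 times the control mean for RNASE2 (log2 difference 1.38, SE 0.058) and 3.05 times for RNASE3 (log2 difference 1.58, SE 0.061). Of the 5 genes, RNASE3 had the largest log2 difference.

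CHI3L1 (ENSG00000133048, chromosome 1, 203178931 to 203186749, minus strand, 10 exons) was the most abundant of the 5 in each library. Its signal was 323 and 324 in knockout libraries, against 129 and 119 in control libraries. The knockout libraries were nearly equal and again lay above both controls. The ratio of the means was 2.62 and the log2 difference 1.38 (SE 0.054).

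RNASET2 (ENSG00000026297, chromosome 6, 166929504 to 166957191, minus strand, 9 exons in its main transcript) went the other way. Its signal was 40.2 and 38.0 in knockout libraries, against 45.4 and 44.7 in control libraries. Both knockout libraries lay below both controls, at 0.868 of the control mean, with a log2 difference of -0.20 (SE 0.061). The lysosomal ribonuclease thus did not share the direction of the granule ribonucleases.

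**Figure D1:**
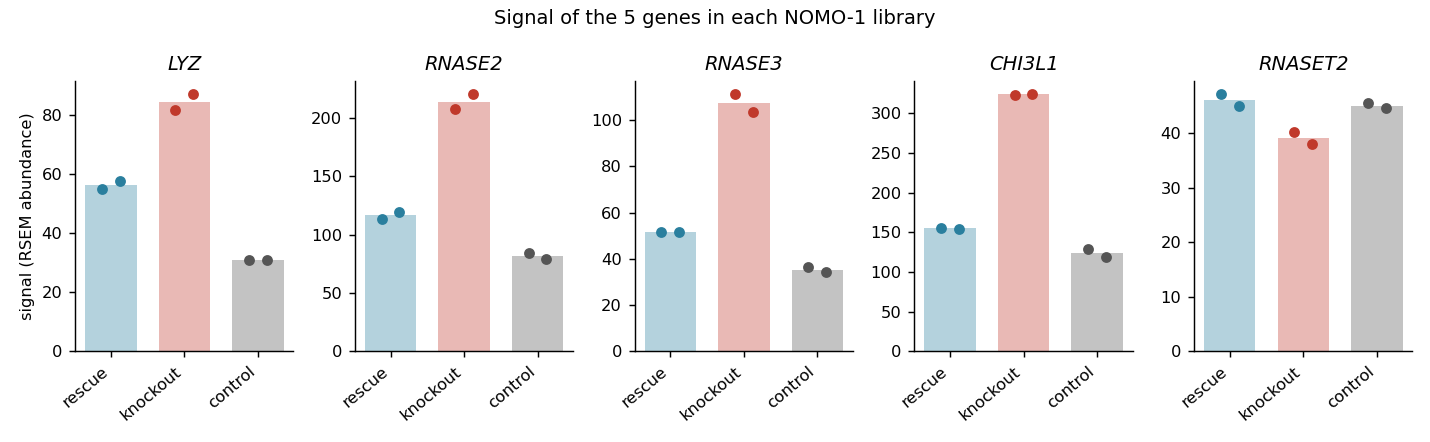
Signal (RSEM abundance, linear axis from 0) of the 5 genes in each library; points are the 2 libraries of a group and bars their mean, with rescue, knockout and control from left to right. For LYZ, RNASE2, RNASE3 and CHI3L1 the 2 knockout libraries are highest and the 2 control libraries lowest, while for RNASET2 the knockout libraries are lowest.

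Over the whole table, 12734 genes were tested. At an adjusted p of 0.05, 26.2% of them rose in knockout against control and 13.5% fell, and 43.4% had both knockout libraries above both controls while 25.1% had both below. The 5 genes were chosen on this contrast, so their own split, 4 with both knockout libraries above both controls and 1 below, is given beside these shares without a reading. Ordered by log2 difference from the top, RNASE3 stood at place 9, LYZ at 15, RNASE2 at 19, CHI3L1 at 20 and RNASET2 at 10757 of 12734. These are bulk libraries, in which more cells that express a gene and more RNA per cell cannot be told apart.

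The order of the 5 levels also differed between groups, which can be read across genes because the signal is scaled for length. In rescue libraries the means ran from CHI3L1 (155) through RNASE2 (117), LYZ (56.4) and RNASE3 (51.5) to RNASET2 (46.1). In knockout libraries the order was CHI3L1 (324), RNASE2 (214), RNASE3 (107), LYZ (84.5) and RNASET2 (39.1). In control libraries RNASET2 (45.1) stood after CHI3L1 (124) and RNASE2 (81.5), and before RNASE3 (35.2) and LYZ (31.0). No pair of neighbours in these orders overlapped in its 2 libraries. Among all genes of a library, RNASET2 held the 88.0th to 91.0th percentile in all 6 libraries, while LYZ stood at the 95.0th and 95.5th percentile in knockout, against the 84.6th and 86.0th in control.

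The comparison of rescue with knockout asked whether the levels differed when METTL16 was overexpressed beforehand. LYZ, RNASE2, RNASE3 and CHI3L1 were lower in rescue than in knockout and RNASET2 was higher, and all 5 passed the test. LYZ stood at 0.668 of the knockout mean (log2 change -0.57, SE 0.060, adjusted p = 1.60e-05) and RNASE2, with 114 and 119 in rescue libraries against 208 and 221 in knockout libraries, at 0.544 (log2 change -0.87, adjusted p = 2.42e-07). RNASE3 had 51.4 and 51.6 in rescue libraries, against 111 and 103 in knockout libraries. It stood at 0.480 of the knockout mean (log2 change -1.04, adjusted p = 1.20e-07). CHI3L1 had 155 and 155 in rescue libraries, against 323 and 324 in knockout libraries, and stood at 0.478 of the knockout mean (log2 change -1.06, adjusted p = 3.67e-08). RNASET2 had 47.2 and 45.0 in rescue libraries, against 40.2 and 38.0 in knockout libraries, and rose to 1.18 times the knockout mean (log2 change 0.23, SE 0.061, adjusted p = 0.0105).

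Over all genes tested 15.9% fell and 15.6% rose in rescue against knockout, and 38.1% had both rescue libraries below both knockout libraries while 34.7% had both above. This comparison shares the knockout libraries with the one the genes were picked on, so the 4 falls are not independent of the choice. The RNASET2 call was lost without knockout replicate 2 (adjusted p = 0.131) and without rescue replicate 1 (adjusted p = 0.162), within a range of 0.00327 to 0.162 over the alternatives.

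Rescue libraries did not reach the control level for 4 of the 5 genes. Rescue against control shares the control libraries with the contrast the genes were picked on. The 4 calls below are thus not independent of the choice. LYZ rose in rescue against control, with 55.0 and 57.8 in rescue libraries against 30.9 and 31.1 in control libraries, a ratio of 1.82 (log2 change 0.85, SE 0.060, adjusted p = 7.45e-06). RNASE3 rose to 1.46 times the control mean (log2 change 0.54, SE 0.061, adjusted p = 0.000697) and RNASE2 to 1.43 times (log2 change 0.51, SE 0.058, adjusted p = 0.000697). CHI3L1, with 155 and 155 in rescue libraries against 129 and 119 in control libraries, rose to 1.25 times (log2 change 0.32, SE 0.054, adjusted p = 0.0165). RNASET2, at 47.2 and 45.0 in rescue libraries against 45.4 and 44.7 in control libraries, overlapped the controls (log2 change 0.03, SE 0.061, adjusted p = 0.878).

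In all, 29 genes rose in rescue against control, which is 0.228% of those tested, and 0.055% fell. Both rescue libraries lay above both controls for 34.6% of genes, and below both for 5.33%. LYZ, RNASE2, RNASE3 and CHI3L1 were among these 29, of which 23 had also risen in knockout against control. Both comparisons use the same control libraries, so the overlap is a description. By log2 change LYZ stood at place 8 of the 29. Above it were S100A8 (1.07), a cytosolic calcium-binding protein abundant in neutrophils, and 6 genes of small RNAs. S100A9 (0.64), the partner of S100A8, and CTSG (0.63), which encodes the granule protease cathepsin G, came after it. The S100A9 call was lost without either control library (adjusted p = 0.0824 and 0.0887). These genes were looked up after the values were seen.

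The calls for RNASE2, RNASE3 and CHI3L1 rested on control replicate 2, whose values lay below those of the other libraries. Without it the log2 change of rescue against control was 0.46 for RNASE2 (adjusted p = 0.102), 0.49 for RNASE3 (adjusted p = 0.0887) and 0.27 for CHI3L1 (adjusted p = 0.147), and 0.85 for LYZ (adjusted p = 0.0248), so that 1 of the 5 genes passed. Only LYZ passed, too, with no trend in the variance (adjusted p = 0.00473 for LYZ, 0.0739 for RNASE2, 0.0677 for RNASE3 and 0.267 for CHI3L1). The median log2 change of all genes in this comparison was 0.061, and 0.000555 without that library. Over all alternatives the adjusted p ran from 1.30e-32 to 0.0248 for LYZ, 4.97e-15 to 0.102 for RNASE2, 1.17e-13 to 0.0887 for RNASE3 and 3.06e-06 to 0.267 for CHI3L1.

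**Figure D2:**
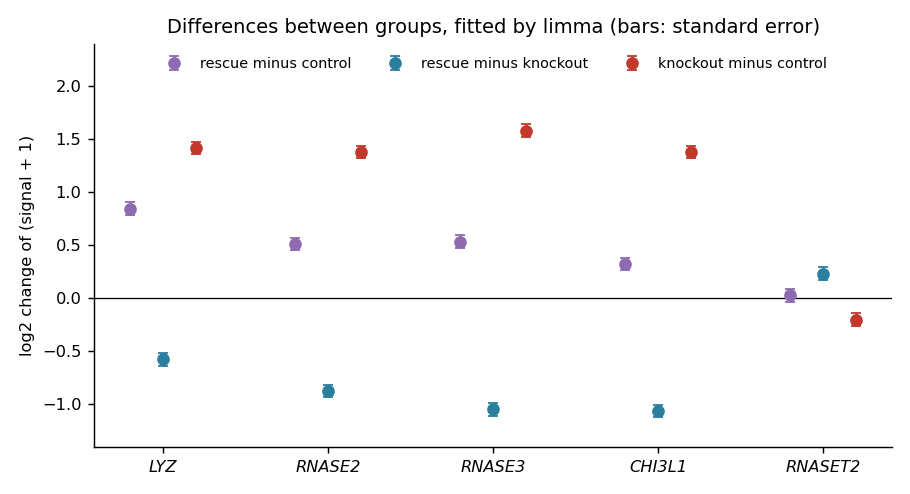
Log2 change of (signal + 1) of each gene, from the limma fit on all 6 libraries, with standard errors; colours give rescue minus control, rescue minus knockout and knockout minus control. LYZ has the largest difference of rescue from control (0.85) and the smallest fall of rescue against knockout (-0.57) among the 4 genes that were higher in knockout.

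The share of the knockout difference that was left in rescue, computed on the linear signal as rescue minus control over knockout minus control, differed between the 4 genes that were higher in knockout. It was 44.9% and 50.1% in the 2 rescue libraries for LYZ, 24.2% and 28.6% for RNASE2, 22.5% and 22.7% for RNASE3 and 15.8% and 15.5% for CHI3L1. The libraries of LYZ lay above those of the other 3 genes with no overlap. Over the 81 genes that rose at least 2-fold in knockout, the median share was 17.7%, with quartiles of 13.7% and 23.2%. The LYZ share of 47.5% was reached or passed by 4 of the 81, LYZ included, and the other 3 were the small RNA genes SNORA16B (48.2%), RNY3 (70.2%) and SNORD50B (121%). The CHI3L1 share of 15.6% was reached or passed by 51. No test was made of these shares, since all 3 groups enter each of them.

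**Figure D3:**
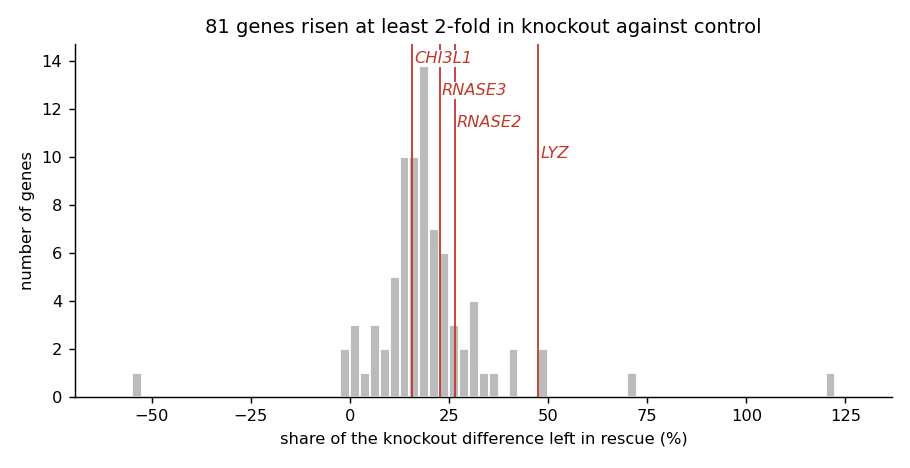
Number of genes (vertical axis) by the share of the knockout difference left in rescue in percent (horizontal axis), for the 81 genes that rose at least 2-fold in knockout against control; red lines mark 4 of them. CHI3L1 (15.6%) lies below the median of 17.7%, RNASE3 (22.6%) and RNASE2 (26.4%) above it, and LYZ (47.5%) in the upper tail.

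Ratios between the genes within a library gave the same picture without any scaling between libraries. The LYZ to RNASE2 ratio was 0.484 and 0.484 in rescue, 0.394 and 0.395 in knockout and 0.367 and 0.394 in control libraries. The rescue libraries lay above all others. For CHI3L1 to RNASE2 the ratio was 1.36 and 1.29 in rescue, 1.55 and 1.47 in knockout and 1.53 and 1.5 in control libraries, with rescue below the rest. The RNASE3 to RNASE2 ratio was 0.453 and 0.432 in rescue, 0.536 and 0.468 in knockout and 0.431 and 0.433 in control libraries, highest in the knockout libraries.

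RNASE2 and RNASE3 are close copies, and reads could be split between them. Their coding sequences are identical at 409 of 480 aligned bases (85.2%). The opening 120 coding bases of each, which include the start codon, are shown to give an idea of how reads can tell the copies apart, with the 11 differing bases in capitals.
RNASE2: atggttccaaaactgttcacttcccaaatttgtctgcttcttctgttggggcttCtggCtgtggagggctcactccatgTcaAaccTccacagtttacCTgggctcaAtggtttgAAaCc
RNASE3: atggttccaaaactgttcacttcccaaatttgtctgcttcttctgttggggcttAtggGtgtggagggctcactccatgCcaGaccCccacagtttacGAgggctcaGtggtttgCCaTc
The copies share the opening bases without a difference and are then told apart by scattered single bases and pairs of adjacent bases. Of all 50-base windows of the main transcripts, 3.26% of those of RNASE2 and 5.37% of those of RNASE3 also occur in transcripts of other genes of GENCODE release 29, which for both are the other copy and the related locus ECRP. With the 2 rows summed, an alternative chosen after the values were seen, the log2 difference of knockout from control was 1.46. CHI3L1 had no such window. LYZ had 9.79%, spread over 171 genes, and RNASET2 had 29.04%, all in the read-through gene AL159163.1, which was not analysed here.

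Upstream, the aligned bases of RNASE2 and RNASE3 are more alike than in the coding sequence, not counting a segment of RNASE2 that has no partner. The 300 bases around the RefSeq start of each gene (GRCh38.p14, mostly before it) are shown because these 2 genes moved together and are alike there. RNASE2 is at chr14:20955237-20955536 and RNASE3 at chr14:20891135-20891434, both on the plus strand, and capitals mark the bases of RNASE2 that have no partner in RNASE3 within the stretch where the windows overlap.
RNASE2: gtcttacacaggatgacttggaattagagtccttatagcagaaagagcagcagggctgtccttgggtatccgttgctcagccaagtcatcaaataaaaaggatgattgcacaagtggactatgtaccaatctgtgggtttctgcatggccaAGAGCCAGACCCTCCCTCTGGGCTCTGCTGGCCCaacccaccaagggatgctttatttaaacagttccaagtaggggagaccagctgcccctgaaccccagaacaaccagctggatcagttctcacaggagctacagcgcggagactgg
RNASE3: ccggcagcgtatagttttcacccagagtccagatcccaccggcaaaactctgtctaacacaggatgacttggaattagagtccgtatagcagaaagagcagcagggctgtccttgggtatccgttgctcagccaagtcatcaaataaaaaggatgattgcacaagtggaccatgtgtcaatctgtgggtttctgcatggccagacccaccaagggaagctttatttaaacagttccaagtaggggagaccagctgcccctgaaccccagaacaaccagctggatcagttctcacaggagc
Over 249 aligned bases the windows are identical at 242 (97.2%), and within the overlap RNASE2 has 1 segment of 34 bases with no partner. The windows are offset, so the last 17 bases of the RNASE2 window and the opening 51 of the RNASE3 window lie outside the overlap. The other differences are scattered over the windows.

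CHI3L1 (chr1:203186655-203186954, minus strand) and RNASET2 (chr6:166956501-166956800, minus strand) are shown as a contrast in composition between a gene that was higher in knockout and the one that was not. Capitals mark TATAAA in CHI3L1 and GGGCGG in RNASET2.
CHI3L1: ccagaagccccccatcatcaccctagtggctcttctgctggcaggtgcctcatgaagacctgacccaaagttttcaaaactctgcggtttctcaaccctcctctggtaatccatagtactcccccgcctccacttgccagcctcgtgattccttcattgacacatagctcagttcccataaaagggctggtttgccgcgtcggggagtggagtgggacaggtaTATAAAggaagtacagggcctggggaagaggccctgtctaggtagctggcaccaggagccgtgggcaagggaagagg
RNASET2: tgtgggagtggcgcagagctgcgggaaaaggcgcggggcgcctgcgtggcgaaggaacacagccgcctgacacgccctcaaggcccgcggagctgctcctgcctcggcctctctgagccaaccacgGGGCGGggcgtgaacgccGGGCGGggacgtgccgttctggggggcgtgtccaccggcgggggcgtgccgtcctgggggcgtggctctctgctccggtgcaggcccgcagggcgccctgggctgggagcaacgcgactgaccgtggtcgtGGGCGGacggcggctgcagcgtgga
The RNASET2 window has a GC content of 75% and 37 CG pairs, CHI3L1 has 56.0% and 7, RNASE2 51.7% and 3, and RNASE3 50.3% and 5. The medians over 35116 promoter windows are 58.7% and 14. The window of LYZ was not analysed here.

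Motifs were searched on both strands of these 4 windows as spelled here. TATAAA, the core of the TATA box, occurs once in CHI3L1 and in 11.5% of all windows. GGGCGG, the GC box bound by SP1, occurs 3 times in RNASET2 and in 45.0% of all windows. TTGCNNAA, a core bound by C/EBP factors, occurs once each in RNASE2 and RNASE3, in the part the copies share, and in 10.5% of all windows. GAGGAA, a core bound by the myeloid factor PU.1 (27.9% of all windows), and TGTGGT, a core bound by RUNX factors (13.1%), have no match in the 4 windows. These are matches of letters and describe no binding.

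The related genes of the RNase A superfamily lie in the same stretch of chromosome 14. A list of the other family members and of the ribonuclease inhibitor RNH1 held 12 genes, of which 5 had a row and 4 were tested. All 4 rose in knockout against control, with a median log2 change of 0.81 against 0.067 over all genes tested. Over all genes tested, 26.2% rose. RNH1, the cytosolic protein that binds and blocks RNase A type enzymes, had 101 and 90.6 in knockout libraries, against 67.1 and 61.0 in control libraries (log2 change 0.58, adjusted p = 2.30e-05). RNASE1, the pancreatic-type enzyme, had 1.24 and 2.00 in knockout libraries, against 0.203 and 0.199 in control libraries (log2 change 1.11, adjusted p = 3.08e-05). RNASE6 had 2.42 and 2.44 in knockout libraries, against 1.15 and 0.615 in control libraries (log2 change 0.88, adjusted p = 0.000199). RNASE4 rose by 0.74 on the log2 scale (adjusted p = 0.000183). RNASE1 and RNASE4 passed the filter on low signal only through the knockout libraries. The filter itself thus favoured a rise of both, and they add nothing to the count. That leaves the inhibitor RNH1 and, of the family itself, RNASE6. The median of 0.81 takes in RNASE1 and RNASE4 and is no support either.

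The neighbourhood of RNASE3 was chosen with these values known. Within 300 kb of it 11 rows lay in the table and 9 were tested. RNASE2 starts 64.1 kb from RNASE3. Between them, at 28.0 kb, lies ECRP, a transcribed pseudogene of this family. Its signal was 29.4 and 30.0 in knockout libraries, against 11.6 and 10.2 in control libraries, and it rose in knockout (log2 change 1.37, adjusted p = 5.19e-08). Reads of ECRP may in part come from its near copies, since 5.90% of its 50-base windows are also in RNASE2 or RNASE3. METTL17, the next tested gene beyond RNASE2 at 98.4 kb, had 24.7 and 21.6 in knockout libraries, against 25.2 and 23.6 in control libraries, which overlap (log2 change -0.07, adjusted p = 0.467). Of the 7 tested neighbours that are not among the 5 genes, 6 rose and none fell in knockout against control. Over all genes tested, 26.2% rose and 13.5% fell. Leaving out RNASE1 and RNASE4, in which the filter favoured a rise, 4 of 5 rose, namely RNASE6, ECRP, ARHGEF40 (0.27) and ZNF219 (0.31). The calls of ARHGEF40 (adjusted p up to 0.323) and ZNF219 (adjusted p up to 0.261) were lost without control replicate 2 and without knockout replicate 1, while that of ECRP was kept in all 15 alternatives.

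**Figure D4:**
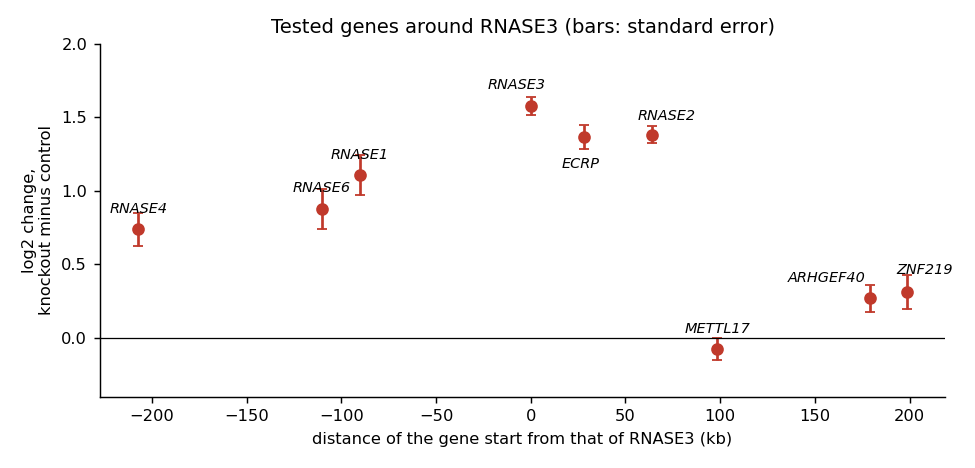
Log2 change of (signal + 1), knockout minus control, with standard errors, of the 9 tested genes within 300 kb of RNASE3, by the distance of the gene start from that of RNASE3 in kb. RNASE3 (1.58), ECRP (1.37) and RNASE2 (1.38) stand highest, and METTL17 at 98.4 kb lies near 0 (-0.07).

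Genes of the same granules were counted from lists written by hand with earlier results of these data known. Of 14 azurophil granule proteins 7 were tested, of which 5 rose and none fell in knockout against control (median log2 change 0.875, against 0.067 over all genes). The shares over all genes tested were 26.2% risen and 13.5% fallen. CTSG had 1364 and 1340 in knockout libraries, against 324 and 304 in control libraries (log2 change 2.10, adjusted p = 7.23e-12). The serine protease gene ELANE rose by 1.47, SRGN, the proteoglycan core of granules, by 0.96, and PRTN3, proteinase 3, by 0.87. AZU1, which encodes azurocidin, had 106 and 89.0 in knockout libraries, against 91.7 and 80.9 in control libraries, and did not pass (adjusted p = 0.102), though it passed in 3 of 15 alternatives. Of 14 specific and gelatinase granule proteins 6 were tested and 4 rose, with SLPI, a protease inhibitor, at 2.33, HP, haptoglobin, at 1.5, CAMP, the antimicrobial cathelicidin, at 1.03, and the collagenase MMP8 at 0.38. HP had 1.37 and 0.935 in rescue and 0.822 and 0.509 in control libraries. It thus needed a knockout library to pass the filter on low signal, and its rise adds nothing to the count. MMP8 (adjusted p = 0.0127) no longer passed when control replicate 1 (adjusted p = 0.0528) or knockout replicate 1 (adjusted p = 0.0626) was left out, within a range of 0.00584 to 0.0626 over 14 alternatives. Apart from SLPI these genes had a signal of at most 5.87 in each library.

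RNASE2 and RNASE3 carry the name of eosinophils, but markers of that cell type were near the floor of the table. Of 10 eosinophil genes 4 had a row, PRG2, CCR3, SIGLEC8 and ADGRE1, and their summed signal was 2.26 to 2.42 in rescue, 2.20 to 2.56 in knockout and 2.08 to 2.13 in control libraries. PRG2, which encodes the eosinophil granule major basic protein, had 1.27 and 1.12 in knockout libraries, against 1.17 and 1.12 in control libraries (log2 change 0.03, adjusted p = 0.846). RNASE2 had 78.9 to 221 over the same libraries. Among basophil and mast cell markers TPSAB1, a tryptase, had 136 and 125 in knockout libraries, against 153 and 138 in control libraries (log2 change -0.16, adjusted p = 0.0612) and passed in 7 of 15 alternatives, while TPSB2 and CMA1 stayed under 1.

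Monocyte and macrophage markers moved with LYZ and CHI3L1. Of 16 such genes 8 were tested, 6 rose and none fell in knockout against control (median log2 change 0.86). Among those that rose, CSF1R had 1.08 and 0.955 in rescue and 0.817 and 0.881 in control libraries. It needed a knockout library to pass the filter on low signal, so its rise adds nothing to the count, and the median takes it in. The shares over all genes tested were 26.2% risen and 13.5% fallen. The summed signal of these markers over 9 rows was 77.8 to 80.05 in rescue, 122 to 127 in knockout and 63.2 to 71.0 in control libraries. MS4A7, a membrane protein of macrophages, rose by 1.35, CD68, a lysosomal glycoprotein, by 0.97, FCN1, the lectin ficolin, by 0.74, and C1QA, a chain of complement C1q, by 1.76. MARCO, a scavenger receptor, had 7.83 and 7.77 in knockout libraries, against 8.52 and 7.83 in control libraries (adjusted p = 0.624). AZU1, MARCO, PRG2, TPSAB1, LYG1, CTBS and CHID1, which did not pass, were chosen after their values were seen. The part of these markers in the levels of the 5 genes was not tested.

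Other members of the lysozyme and chitinase families were few in the table. LYG1, a goose-type lysozyme, was the only tested gene of 9 in the lysozyme family and did not pass (log2 change -0.15, adjusted p = 0.299). Of 6 genes of glycoside hydrolase family 18, to which CHI3L1 belongs, 3 were tested and OVGP1, oviductal glycoprotein, alone rose (log2 change 0.47, adjusted p = 0.00625). OVGP1 no longer passed when control replicate 2 (adjusted p = 0.0598) or knockout replicate 1 (adjusted p = 0.0934) was left out, within a range of 0.000374 to 0.0934 over 14 alternatives. CTBS, a lysosomal chitobiase, had 7.496 and 8.41 in knockout libraries, against 8.96 and 9.11 in control libraries (adjusted p = 0.156). CHID1, of the same family, had 10.3 and 9.60 in knockout libraries, against 9.91 and 7.86 in control libraries (log2 change 0.16, adjusted p = 0.236). Of 8 reported binding partners of CHI3L1, 4 were tested and 3 rose: LGALS3, galectin-3, by 0.55, TMEM219 by 0.49 and CD44, a hyaluronan receptor, by 0.35. Over all genes tested, 26.2% rose in knockout against control.

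RNASET2 acts in lysosomes beside other nucleases and proteases. Of 19 genes for endolysosomal nucleases and nucleic acid sensing 13 were tested, and 8 rose and 2 fell in knockout against control (median log2 change 0.26). The shares over all genes tested were 26.2% risen and 13.5% fallen. CTSS rose by 0.50 and CTSB by 0.39, both lysosomal cathepsins, and DNASE2, the acid deoxyribonuclease, by 0.48. The 2 that fell were RNASEH2A (-0.39) and RNASEH2B (-0.16), subunits of the nuclear ribonuclease H2. RNASEH2B was named with its value known, and its call (adjusted p = 0.0481) was lost in 8 of 15 alternatives (adjusted p up to 0.184), among them those that left out control replicate 1, either knockout library or either rescue library. The RNASEH2A call was kept in all 15. RNASET2 had a log2 difference of -0.20.

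Transcription factors of granule genes were counted in the same way. Of 18 factors 17 were tested, and 11 rose and 2 fell in knockout against control (median log2 change 0.32). Over all genes tested, 26.2% rose and 13.5% fell. KLF4, a factor of monocyte differentiation, rose by 1.12, IRF8, another, by 0.57, CEBPA, a factor of granulocyte and monocyte progenitors, by 0.45, and RELA, a subunit of NF-kB, by 0.55. The 2 that fell were CEBPB (-0.24) and TFEB, a regulator of lysosomal genes (-0.18), both named with their values known. These falls were not stable, since the CEBPB call was lost in 4 of 15 alternatives (adjusted p up to 0.0837) and the TFEB call in 6 of 15 (adjusted p up to 0.304). Each was lost without control replicate 1 and without knockout replicate 2, CEBPB also without knockout replicate 1, and TFEB also without either rescue library. In rescue against control, none of the 17 passed.

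**Figure D5:**
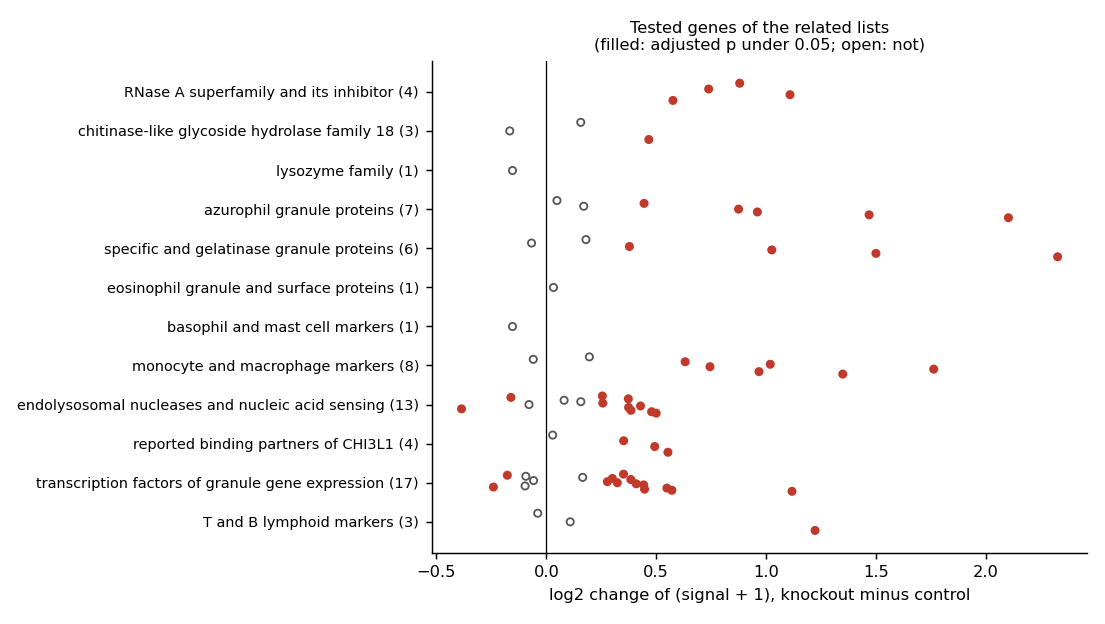
Log2 change of (signal + 1), knockout minus control (horizontal axis), of the tested genes of each list, with the number tested in parentheses; filled points passed an adjusted p of 0.05 and open points did not. The azurophil, specific granule, monocyte, RNase A, transcription factor and lymphoid lists each hold at least 1 change above 1, while the lysozyme, eosinophil and basophil lists hold 1 tested gene each, near 0. In the RNase A and lymphoid lists those above 1 are RNASE1 and CD2, which passed the filter only through the knockout libraries. HP in the specific granule list and CSF1R in the monocyte list, also above 1, needed a knockout library to pass it.

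Profiles over the 6 libraries were compared by the Euclidean distance between centred log2(signal + 1) values, over 8823 genes with a mean signal of at least 5. Nearest to LYZ was S100A9 (distance 0.295), which had 52.6 and 53.1 in knockout libraries, against 17.6 and 19.9 in control libraries, followed by MNDA (0.446), a nuclear antigen of myeloid cells, and MS4A7 (0.495). Nearest to RNASE2 were MNDA (0.128), MS4A7 (0.144) and LILRA2 (0.201), a leukocyte immunoglobulin-like receptor. RNASE3 was nearest to ELANE (0.213), CCNA1 (0.219), a cyclin, and MS4A7 (0.248), and CHI3L1 to ECRP (0.121), FAM46C (0.126) and MS4A7 (0.127). The median distance to all genes was 1.37 to 1.57 for these 4 genes. Nearest to RNASET2 were PPA1 (0.0368), an inorganic pyrophosphatase, ERCC1 (0.0455), a DNA repair protein, and the read-through entry SLMO2-ATP5E (0.0490), with a median of 0.351 over all genes. Among the 5 genes RNASE2 and CHI3L1 were closest (0.231), and RNASET2 was 1.63 to 1.84 from the rest.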

How the data were processed

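Total RNA from NOMO-1 cells was depleted of ribosomal RNA, made into stranded libraries and sequenced on an Illumina HiSeq, per the labels' protocols. STAR, RSEM and GRCh38 are named, per the submitters' processing notes, with roles and versions not given in the sources used here. The deposited table holds 1 signal (RSEM abundance of unstated kind, used as the authors deposited it) per gene and library, has no value of 0, and left 0 columns unmatched to a sample.

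Groups came from the titles. The filter asked for a signal of 1 or more in 2 libraries, which 12734 genes passed and 2325 failed. A single limma model (version 3.58.1, R 4.3.3), with a mean-variance trend, was fitted to log2(signal + 1) of the 6 libraries, leaving 3 residual degrees of freedom beside 11 from the prior. Adjusted p is two-sided, Benjamini-Hochberg over the 12734 genes, called at 0.05. Adding 1 understates the change of low genes. The fit was tested on simulated data. The 5 genes and the 13 lists were chosen with earlier results of these data known. Genes named are the 5, METTL16, the 3 nearest profiles of each, and up to 4 per list with the smallest p in knockout against control among those past the threshold.

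No read totals are stated. Values of transcripts of up to 400 nt lay near whole multiples of a step per library (74.3% to 87.5% within 0.15), a step chosen for the best match, which puts LYZ at about 1200 to 3000 reads, RNASE3 at about 580 to 1800 and CHI3L1 at about 5300 to 13000. Coordinates are GENCODE release 29 (GRCh38), and promoter windows RefSeq (GRCh38.p14), which matched 4 of the 5 genes. Sequences were aligned with Biopython 1.88 in Python 3.11.15, and figures drawn with matplotlib 3.10.9.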

Additional observations from a re-analysis of the deposited data

How the results depend on the processing

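Results were recomputed under up to 15 other settings (9 for the shares left in rescue and for the direction of the 5 genes in knockout, 14 for genes too low for the filter on a mean of 5), and the cause of the differences was not tested. In knockout against control, 4 of the 5 genes had both libraries above both controls under every scaling and without each library. The genes were chosen on this contrast, so this is no support and is given without a reading. In the main fit 43.4% of all genes tested had both knockout libraries above both controls. In rescue against knockout, 4 to 5 of the 5 genes passed. In rescue against control 4 passed, but 1 with no trend in the variance, when LYZ kept its call (adjusted p = 0.00473), and 1 to 4 when leaving out 1 library. CHI3L1 also lost its call there after quantile normalization (adjusted p = 0.0693) and median centring (adjusted p = 0.0544).

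Replicate numbers do not pair the libraries as far as the labels say (correlation of deviations -0.048 to 0.101 between groups). With a replicate block, 299 genes rose and 83 fell in rescue against control, where the fit without it had 29 and 7, and the calls of the 5 genes were kept.

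Further counts for rescue against control were 17 risen without a filter, 194 risen and 31 fallen with a mean of at least 5, 19 and 14 after quantile normalization, 8 and 0 after median centring, 17 and 12 when rescaled without the 4 most abundant genes, 5 and 4 with no trend, and 217 and 71 with only the 2 groups compared. Leaving out 1 library gave 6 to 220 risen and 1 to 73 fallen. In knockout against control, 1723 genes fell, 3181 after quantile normalization and 3199 after median centring, and 2185 to 4120 rose and 1193 to 2257 fell when leaving out 1 library. In rescue against knockout, 2022 fell, 3946 when rescaled without the 4 most abundant genes, and 1159 to 2491 rose and 1216 to 2534 fell when leaving out 1 library. Of the genes of the related lists 43 rose (36 to 44 when leaving out 1 library) and 4 fell in knockout, 1 with no trend, 2 with only the 2 groups compared, and 1 to 5 when leaving out 1 library.

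The share left in rescue after quantile normalization was 22.9% for RNASE2, 20.2% for RNASE3 and 10.9% for CHI3L1. It was 21.2% for RNASE3 and 13.6% for CHI3L1 after median centring. Rescaled without the 4 most abundant genes it was 42.4% for LYZ, 22.3% for RNASE2, 19.3% for RNASE3 and 12.1% for CHI3L1. Leaving out 1 library gave 44.9% to 50.1% for LYZ, 24.2% to 28.6% for RNASE2, 21.4% to 23.9% for RNASE3 and 13.4% to 17.7% for CHI3L1. The depth of these libraries is known only from the spacing of low values.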
